A study of Mus musculus with 5 samples.

Results

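The Kruppel-like factor genes examined here were Klf2, Klf3, Klf5, Klf6, Klf7, Klf9, Klf10, Klf12 and Klf13, 9 of 21787 protein-coding genes, identified by their RefSeq symbols. DNaseI hypersensitive sites (DHSs), stretches of open chromatin that the enzyme DNaseI cuts readily, were listed by the authors at 5 stages of blood cell formation from a mouse ES cell line of strain 129 that carries a Brachyury-GFP reporter. The stages were mesoderm (MES, Bry.GFP+, FLK1-), hemangioblasts (HB, Bry.GFP+, FLK1+), hemogenic endothelium (HE, Bry.GFP+, Tie2+/Ckit+/CD41-), CD41+ hematopoietic progenitors (HP) and CD11b+ macrophages (MAC). All populations came from this line in culture, with no embryo or adult cells, and each stage had 1 list, although the MAC label names 2 replicates. A site was assigned to a gene as a promoter site when its edge lay within 1 kb of any annotated transcription start site (TSS) of the gene. Any other site was assigned when its middle lay inside the gene or up to 100 kb from its TSS and no other protein-coding TSS was nearer. By this rule 188 of 135173 listed sites belonged to the genes. The genes were chosen with earlier results of these data known.

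Kruppel-like factors bind CACCC and GC boxes in DNA through zinc fingers at their carboxy end, next to their relatives of the SP family. Klf2, Klf5, Klf6 and Klf7 are mostly known as activators. Klf3 and Klf12 repress through CtBP corepressors, and Klf9, Klf10 and Klf13 can recruit the Sin3 corepressor. In the vessel wall Klf2 is known for its response to blood flow, and several members take part in the maturation and inflammatory response of macrophages.

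The 5 lists held 17734 (HP) to 37456 (MAC) sites, with a median width of 600 bp in MAC to 1200 bp in HE. They give positions only, so the height of a site cannot be read from them. The depth of sequencing was not used here, and no difference between stages could be set against a spread between replicates. An entry in a list is called open below, and its lack says only that no site was listed. Of the sorting markers, the Brachyury gene T was open at its promoter in MES and HB, the Tie2 gene Tek in HE, the CD41 gene Itga2b in HE and HP, and the CD11b gene Itgam in MAC. Kit was open in every stage except MAC, and the FLK1 gene Kdr in all 5. Pou5f1, a gene of undifferentiated ES cells, had one in MES and Nanog in MES, HB and HE, and their part in the values below was not tested.

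The promoter of Klf2 is shown first because it joins 2 motifs found at several of these genes. The 250 bases before its TSS (mm10, chr8:72318812-72319061, + strand, RefSeq GRCm38.p6) lay inside the listed site in all 5 stages. Capitals mark 2 SP boxes, spelled GGGGCGGGG, and a match to the MEF2 consensus, a site bound by MEF2 factors. The KLF box GGGNGTGG, found in promoter regions of 7 of the 9 genes, is absent from these bases.
Klf2 promoter: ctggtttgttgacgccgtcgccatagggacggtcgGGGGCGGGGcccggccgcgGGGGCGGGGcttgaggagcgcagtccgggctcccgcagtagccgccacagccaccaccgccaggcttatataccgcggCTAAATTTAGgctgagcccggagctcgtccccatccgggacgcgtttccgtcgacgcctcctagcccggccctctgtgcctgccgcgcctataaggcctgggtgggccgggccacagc
The MEF2 consensus also occurred in the promoter regions of Klf6 and Klf7. The matches began 118 bases upstream of the TSS in Klf2, 256 bases in Klf6 and 157 bases upstream of the nearest TSS in Klf7, where longer transcripts make the position intronic. All 3 matches lay inside the promoter site of every stage. Each is printed in the direction of its gene, with 10 bases on either side and the match in capitals.
Klf2, chr8:72318934-72318963: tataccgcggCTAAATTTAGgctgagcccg
Klf6, chr13:5861223-5861252: atataccctgCTAAAAATAGcctgtgagac
Klf7, chr1:64121802-64121831, - strand: atatagccctCTAAAAATAGcttgcctcgt
Klf6 and Klf7 shared the same 10 letters in capitals.

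Beyond the promoters, 5 regions were open from HE onwards, in HE, HP and MAC, and are printed because 5 of the genes had 1 each. Each line gives the 200 bases, on the + strand of mm10, that hold most motif letters. Capitals mark the AP1 motif TGANTCA (the site of FOS and JUN proteins), the TEAD motif GGAATG, the RUNX motif TGTGGT and the KLF box GGGNGTGG, each on either strand.
Klf2 -23.4 kb, chr8:72295542-72295741: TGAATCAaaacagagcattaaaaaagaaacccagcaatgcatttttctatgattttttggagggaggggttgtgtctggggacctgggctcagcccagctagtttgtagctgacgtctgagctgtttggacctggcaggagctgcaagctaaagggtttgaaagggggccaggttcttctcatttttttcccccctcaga
Klf3 -86.7 kb, chr5:64716601-64716800: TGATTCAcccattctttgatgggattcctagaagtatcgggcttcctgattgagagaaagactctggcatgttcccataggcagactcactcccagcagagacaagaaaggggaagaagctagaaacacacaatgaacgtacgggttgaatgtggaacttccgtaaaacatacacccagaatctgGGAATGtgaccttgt
Klf6 -24.0 kb, chr13:5837497-5837696: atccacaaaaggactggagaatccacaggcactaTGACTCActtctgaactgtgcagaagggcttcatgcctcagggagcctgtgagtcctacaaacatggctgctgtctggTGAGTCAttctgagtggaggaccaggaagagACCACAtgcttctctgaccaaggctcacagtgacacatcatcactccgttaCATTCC
Klf9 -5.65 kb, chr19:23135473-23135672: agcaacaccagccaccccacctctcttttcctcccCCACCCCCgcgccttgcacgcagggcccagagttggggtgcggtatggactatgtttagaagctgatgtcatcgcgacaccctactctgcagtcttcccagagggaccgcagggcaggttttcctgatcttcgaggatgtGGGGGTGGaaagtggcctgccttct
Klf13 -72.9 kb, chr7:64011712-64011911: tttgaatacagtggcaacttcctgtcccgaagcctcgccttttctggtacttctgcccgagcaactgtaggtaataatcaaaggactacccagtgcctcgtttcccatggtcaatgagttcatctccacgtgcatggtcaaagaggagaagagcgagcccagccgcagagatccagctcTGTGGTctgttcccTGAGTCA
The AP1 motif stood in the regions of Klf2, Klf3, Klf6 and Klf13, 4 of 5, against 47.7% of such regions of all genes. That of Klf9 held 2 KLF boxes and no AP1 motif. The GATA motif AGATAA lay outside the printed bases in the regions of Klf3, Klf6 and Klf13 (3 of 5 against 33.0%). Next to the Klf9 region lay one open in MES and HB, with a TEAD and a CEBP motif (TTGCNNAA) in capitals. It is shown because the middles of the sites, though not their whole spans, differed there between early and later stages (below).
Klf9 -4.64 kb, chr19:23136448-23136647: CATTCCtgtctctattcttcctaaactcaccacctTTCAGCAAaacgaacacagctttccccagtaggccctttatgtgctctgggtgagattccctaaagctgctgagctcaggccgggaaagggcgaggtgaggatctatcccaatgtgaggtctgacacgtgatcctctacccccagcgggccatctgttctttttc
A region of Klf6 and one of Klf10 that were open in all 5 stages are given for comparison, the former with a pair of AP1 motifs and the latter with an SP box and a KLF box.
Klf6 -16.2 kb, chr13:5845140-5845339: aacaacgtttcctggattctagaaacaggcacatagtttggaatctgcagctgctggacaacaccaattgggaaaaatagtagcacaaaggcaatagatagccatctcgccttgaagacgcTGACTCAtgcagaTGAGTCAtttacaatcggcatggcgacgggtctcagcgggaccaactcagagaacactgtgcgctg
Klf10 -73.4 kb, chr15:38374000-38374199: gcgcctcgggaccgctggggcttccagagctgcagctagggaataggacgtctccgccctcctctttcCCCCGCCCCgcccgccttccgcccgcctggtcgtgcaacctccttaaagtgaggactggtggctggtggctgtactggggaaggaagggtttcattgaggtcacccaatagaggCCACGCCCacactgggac

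To determine whether the promoters were open, sites near a TSS were counted. All 9 genes had a promoter site in MES, where 55.5% of protein-coding genes had one. The same held for 9 of 9 in HB (57.1% of all genes), 9 in HE (59.8%) and 9 in HP (48.6%), and for 8 in MAC (48.7%). Thus 8 of 9 were open at the promoter in all 5 stages, against 42.0% of all genes. The exception was Klf12, which was open in all stages but MAC, a pattern of 3.81% of all genes. Of the 54 promoter sites, 12 were listed in MES, 12 in HB and 10 in each of the later stages. Since the genes were chosen with earlier results of these data known, their shares beside those of all genes are a description only. Of 17 other genes of the KLF and SP family, 9 were open at the promoter in all 5 stages (below).

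**Figure D1:**
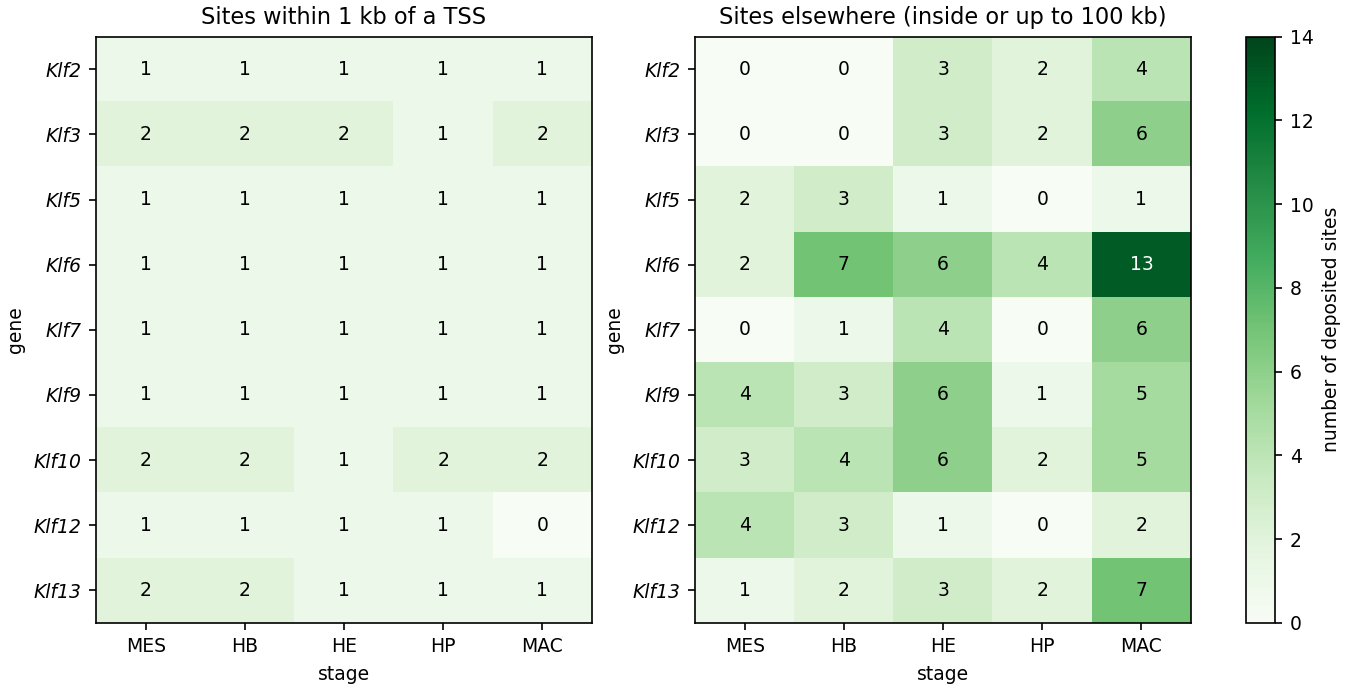
Number of deposited sites of each gene (rows) in each stage (columns), within 1 kb of a TSS on the left and elsewhere on the right, with colour scaled to the count. The promoter columns are filled for every gene except Klf12 in MAC, whereas the other sites range from 0 to 13.

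Klf2, Klf5, Klf6, Klf7 and Klf9 had a single promoter site in each stage, and it covered a TSS every time. Klf2, on chromosome 8, had sites of 1000, 1200, 1500, 1200 and 1000 bp from MES to MAC. That of Klf5, known for self-renewal of ES cells and for epithelia, measured 1200, 1400, 1300, 1000 and 700 bp in the same order. At Klf6, a widely expressed gene that responds early to injury, the widths were 1200, 1300, 1600, 1200 and 1000 bp. The promoter sites of Klf7, known from neurons, and of Klf9, induced by steroid and thyroid hormones, had the same width of 1200 bp in MES and in MAC. In HE they reached 2000 bp at Klf7 and 1900 bp at Klf9. Across the genes the widest promoter site had a median of 1200, 1400, 1900, 1200 and 950 bp from MES to MAC. All promoter sites of these lists had medians of 1000, 1200, 1600, 1100 and 800 bp, so HE had the widest and MAC the narrowest sites at these genes and over the lists alike.

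**Figure D2:**
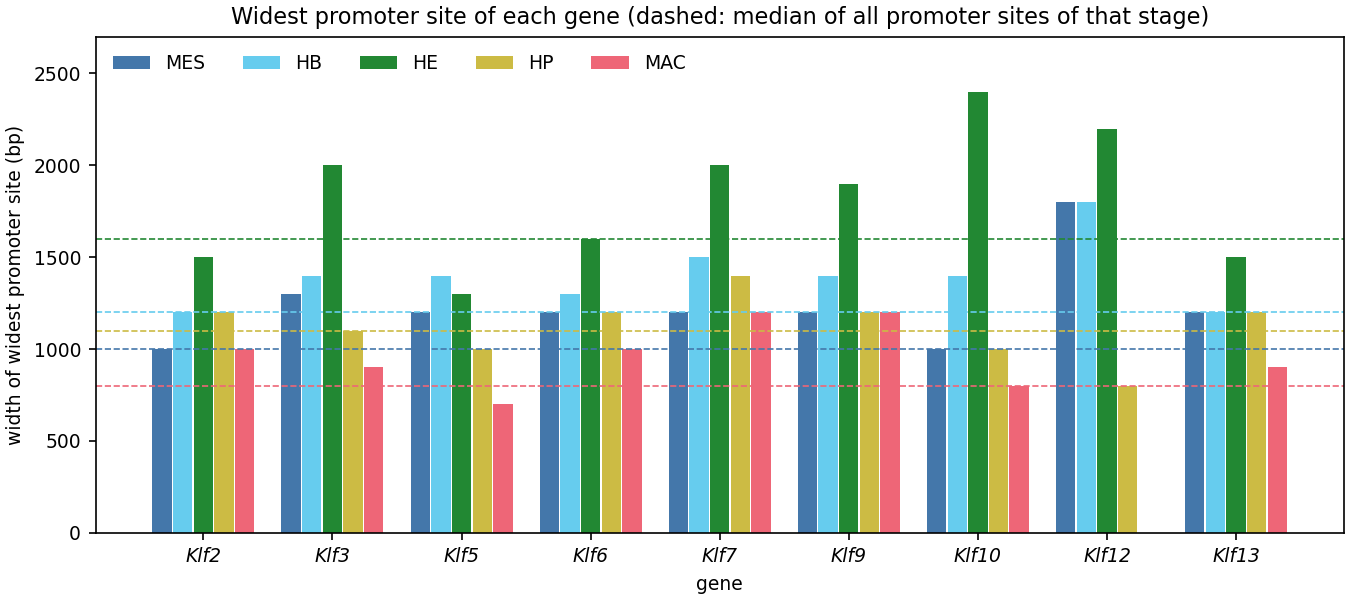
Width in bp of the widest promoter site of each gene, with 1 bar per stage from a single list and no error bars. Dashed lines give the median width of all promoter sites of the stage; the HE bar is the tallest at 8 of the 9 genes, and no bar is drawn for Klf12 in MAC.

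Some genes had a second promoter site that came and went. Klf10, an early response gene of TGF-beta, has curated TSSs at 38300711 and 38299900 on chromosome 15, on the - strand. An intron site 0.658 kb downstream of the inner TSS was listed in MES (600 bp), HB (700 bp), HP (1000 bp) and MAC (600 bp) beside one over the outer TSS. In HE a single site of 2400 bp covered the outer TSS and reached upstream, and none lay in that intron. Klf3, a repressor known from B cells and fat cells, had a site over its main TSS in all 5 stages, with widths of 1300, 1400, 1200, 1100 and 900 bp from MES to MAC. Its second TSS, at 64812323 on chromosome 5, is not that of a curated mRNA, and the regions around it had their middles in an intron of Klf3. Sites lay upstream of this TSS in MES (800 bp) and HB (900 bp), over it in HE (2000 bp) and downstream in MAC (300 bp). None was listed there in HP. The HE site overlapped the regions of both the early stages and MAC, so these positions were not separate by overlap of the deposited intervals. Klf13, known for its control of the chemokine gene Ccl5 in T cells, had its second site 1.15 kb inside the gene, of 400 bp in MES and 600 bp in HB. None was listed there from HE on.

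Klf12 differed among the genes in where its promoter site lay. Its curated TSS, at 100149796 on chromosome 14, had no site in any stage. The listed sites covered the starts of predicted transcripts at 100284833 and, outside HP, also at 100285891, with a width of 1800 bp at both early stages, 2200 bp at HE and 800 bp at HP. With TSSs of curated mRNAs alone, the count of genes with a promoter site was therefore 8 of 9 in each stage. The shares of all genes given above hold for all annotated TSSs and cannot be set beside this count.

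Sites away from promoters were less evenly spread over genes and stages. From MES to MAC they numbered 16, 23, 33, 13 and 49, or 134 in all. With the promoter sites included, the genes held 0.128% of the MES list, 0.142% of the HB list, 0.129% of the HE list, 0.130% of the HP list and 0.158% of the MAC list, so their counts moved with the lengths of the lists. When every list was shortened to as many of its widest sites as HP has, the genes held 24, 28, 26, 23 and 26 sites from MES to MAC, and MAC and HE no longer held the most. At least 1 such site was assigned to 6 of 9 genes in MES (26.0% of all genes) and to 7 in HB (28.2%). All 9 had one in HE (37.3%) and again in MAC (42.5%), and 6 in HP (21.5%).

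Over all 5 lists the count of sites per gene ran from 12 at Klf5 to 37 at Klf6, with a median of 20 against 5 over all protein-coding genes. Klf6 was exceeded by 92 genes (0.422%) and Klf10, with 29 sites, by 231 genes. When noncoding genes also competed as the nearest gene, Klf6 kept 9 sites, Klf9 went from 24 to 5 and Klf10 from 29 to 9. At Klf9 and Klf10 these were the promoter sites alone, so all their other sites lay nearer to a noncoding gene. The counts of sites per gene stand beside the room around each gene. The stretch nearest to each gene's TSSs measured 71.9 kb at Klf2 to 520 kb at Klf12, and its median over all genes was 49.2 kb. Per 100 kb of that stretch, Klf13 had 20.6 sites, Klf10 20.5, Klf2 19.5, Klf6 18.5, Klf9 14.5, Klf3 12.2, Klf7 7.96, Klf5 6.02 and Klf12 2.69, beside a median of 8.41 over all genes. By this density 24.5% of genes stood above Klf13, and Klf7, Klf5 and Klf12 fell below the median.

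**Figure D3:**
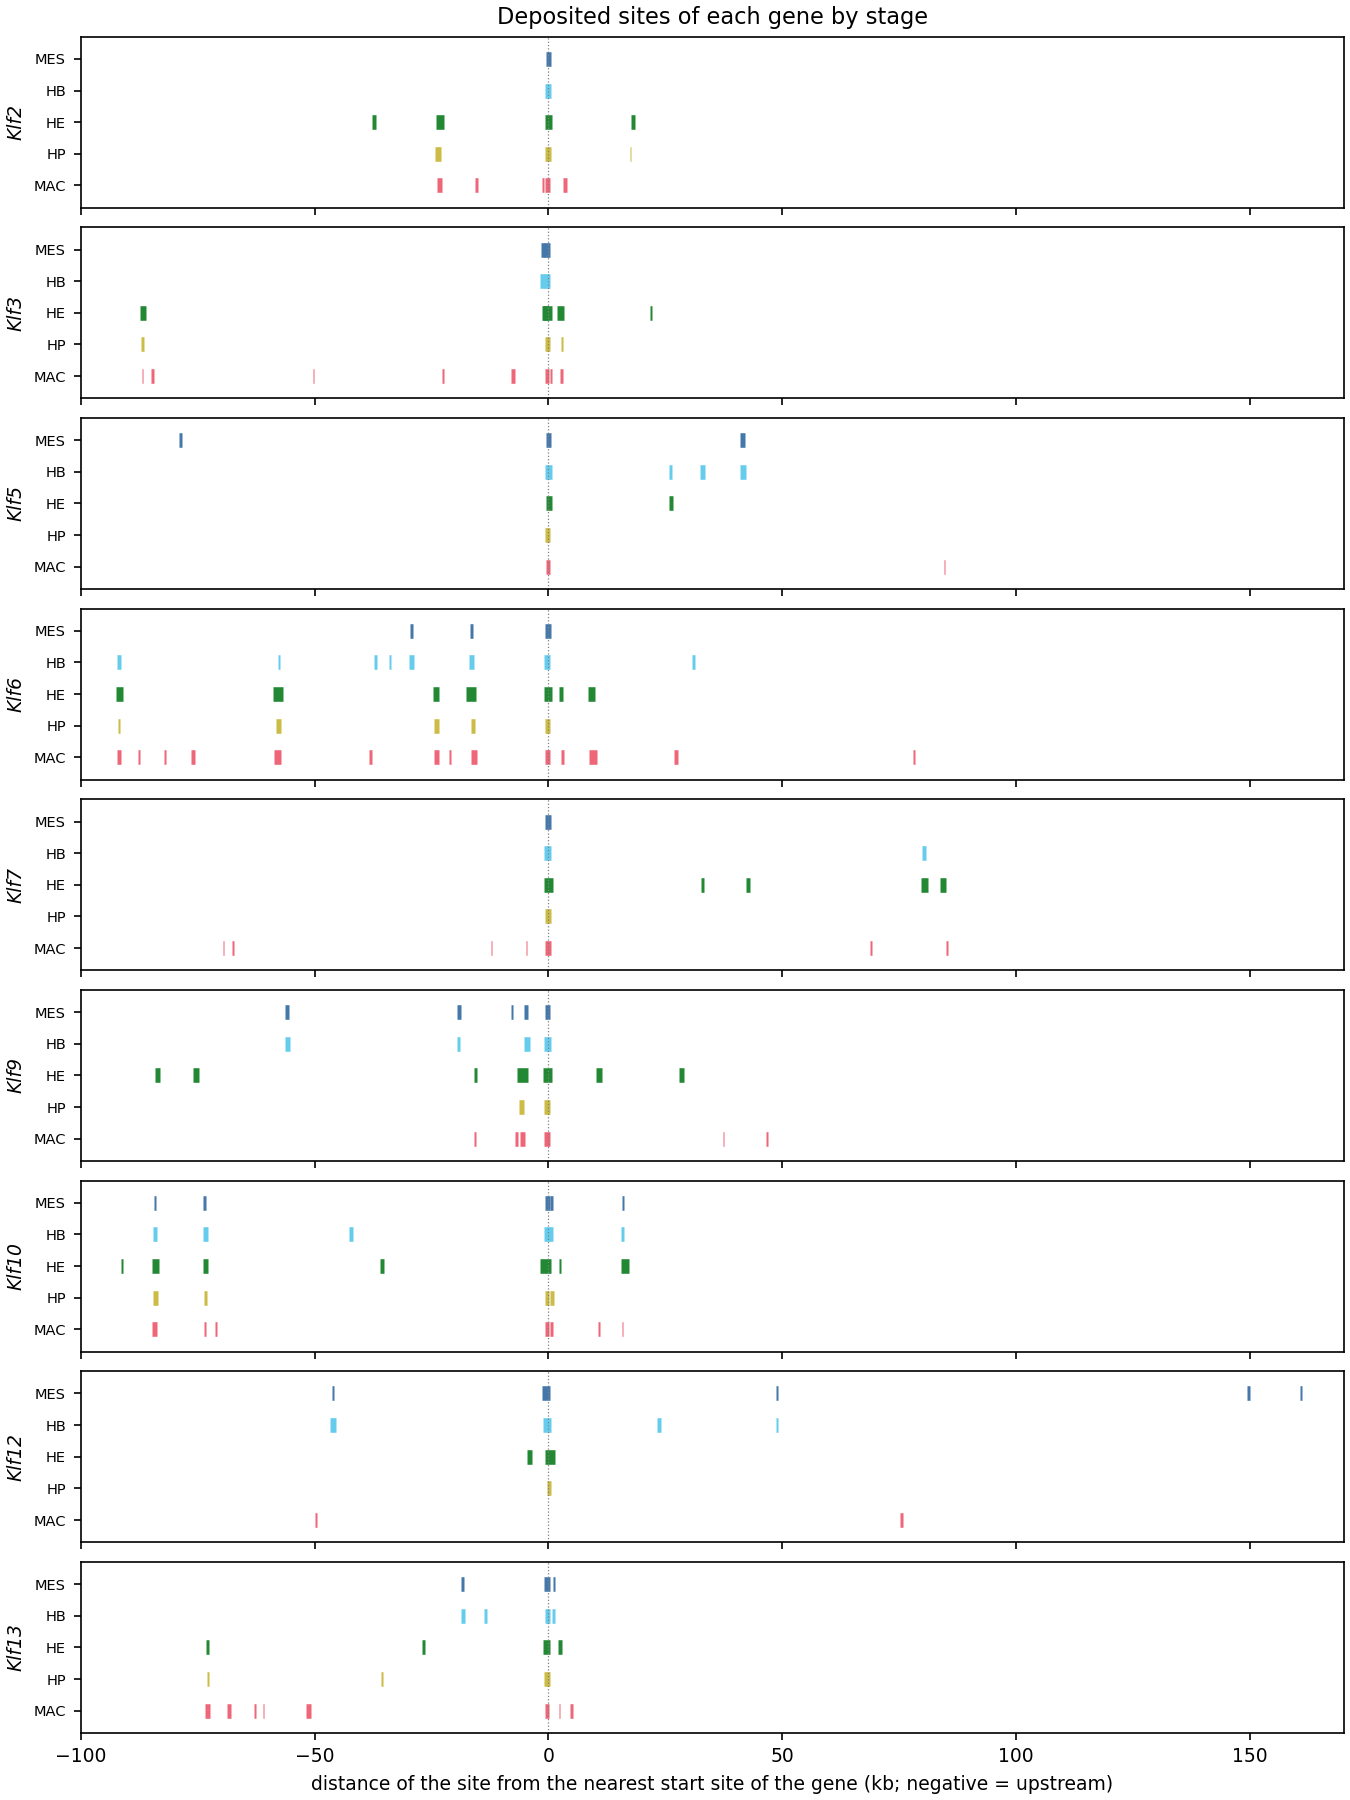
Position of every assigned site of each gene by stage, drawn to scale in width, as distance in kb from the nearest TSS of the gene (negative is upstream), so that genes with several TSSs have sites of different starts on 1 axis. Klf2, Klf3 and Klf7 have few or no sites away from 0 in MES and HB, whereas Klf6 and Klf10 have distant sites in all 5 stages.

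Among the activators, Klf2 had no site away from its promoter in MES or HB. The counts were 0, 0, 3, 2 and 4 from MES to MAC. Regions open from HE on and not before made up 69.0% of those away from promoters over all genes. They were 9 of 10 at Klf7, 9 of 11 at Klf13 and all 7 at Klf2. The Klf2 region shared by HE (1500 bp), HP (1300 bp) and MAC (1000 bp) lay 23.4 kb upstream, between genes, at chr8:72295243-72296123. Of the regions seen in a single stage, the widest were 18.1 kb downstream in HE (1000 bp), 17.5 kb downstream in HP (300 bp) and 3.56 kb downstream, behind the gene, in MAC (1000 bp). The HP region 17.5 kb downstream was also touched by the HE site, so it was not particular to HP by overlap of the deposited intervals.

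Klf7 also had few sites at the early stages. Those away from the promoter numbered 0, 1, 4, 0 and 6, so that in MES and HP the promoter alone was listed. An intron region 80.3 kb downstream of the TSS was open in HB (800 bp) and HE (1500 bp). The widest region of HE alone was in an intron 84.4 kb downstream (1300 bp), and another HE region had its middle in a coding exon 42.6 kb downstream (900 bp). The MAC regions had sites 200 to 400 bp wide, 2 in introns and 4 upstream between genes. The widest, of 400 bp each, lay 85.3 kb and 68.9 kb downstream in introns and 12.2 kb upstream. The HE site 84.4 kb downstream reached the 500 bp window of the MAC region at 85.3 kb, though the listed sites did not overlap.

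At Klf5 most other sites were early, with 2, 3, 1, 0 and 1 other sites. Its region 41.5 kb downstream (chr14:99339913-99340535) was open in MES (1100 bp) and HB (1200 bp), and another 26.1 kb downstream in HB (700 bp) and HE (900 bp). HB alone had one 32.9 kb downstream (900 bp). The region open in MES alone lay 78.7 kb upstream in an intron of the neighbouring gene Pibf1 (600 bp), and the one open in MAC alone 84.7 kb downstream (200 bp). No region of Klf5 outside the promoter was open in HP.

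Klf6 had the most other sites, with 2, 7, 6, 4 and 13 from MES to MAC, in 18 merged regions. A region 16.2 kb upstream (chr13:5844667-5845811) was open in all 5 stages, with sites of 600, 1200, 2100, 800 and 1100 bp from MES to MAC. Farther upstream, regions at 57.8 kb and 91.8 kb were open from HB to MAC and not in MES. At 57.8 kb (chr13:5803262-5804098) the widths from HB to MAC were 500, 2100, 1000 and 1400 bp. At 91.8 kb (chr13:5769411-5770016) they were 900, 1600, 500 and 900 bp. The region 24.0 kb upstream, at chr13:5837217-5837811, was open in HE (1400 bp), HP (900 bp) and MAC (900 bp), and one 29.3 kb upstream in MES (500 bp) and HB (1100 bp).

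Of the 12 regions of Klf6 seen in a single stage, 8 were of MAC, 3 of HB and 1 of HE. The widest of MAC, 1600 bp wide and 9.52 kb downstream, just behind the gene, overlapped the widest of HE (1500 bp, 9.13 kb downstream) when the deposited intervals were compared. The widest of HB lay 31.0 kb downstream (800 bp). An intron region 2.85 kb downstream was open in HE (800 bp) and MAC (600 bp).

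Of the genes that act through CtBP, Klf3 had 0, 0, 3, 2 and 6 other sites from MES to MAC. A region in its intron, 2.77 kb downstream of the TSS (chr5:64805876-64806707), was open in all 5 stages, with widths of 700, 600, 1400, 500 and 500 bp. The MES and HB sites there were nearer to the TSS of the neighbouring gene Gm38457 by their middles and are therefore absent from the counts of Klf3. The region 86.7 kb upstream (chr5:64716493-64717125) was open in HE (1300 bp), HP (500 bp) and MAC (300 bp). HE alone had a region 22.0 kb downstream (500 bp), and the widest of 4 regions of MAC alone lay 7.53 kb upstream (900 bp).

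Klf12 had 4, 3, 1, 0 and 2 other sites, and all 8 regions were inside its body of 419711 bp. Regions of both MES and HB lay 46.1 kb upstream (600 and 1100 bp) and 48.9 kb downstream (400 and 500 bp) of the nearest TSS. In MES alone the widest was 150 kb downstream (600 bp), in HB alone 23.6 kb downstream in an untranslated exon (700 bp), in HE alone 4.02 kb upstream (1000 bp) and in MAC alone 75.5 kb downstream (600 bp). No region away from the promoter was shared between the early stages MES and HB and any later one.

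Among the genes linked to Sin3, Klf9 had 4, 3, 6, 1 and 5 other sites in 13 regions. Regions 55.8 kb (800 and 1000 bp), 19.2 kb (800 and 500 bp) and 4.64 kb (900 and 1300 bp) upstream were open in MES and HB. The one 5.65 kb upstream (chr19:23135232-23135912) was open in HE (2400 bp), HP (900 bp) and MAC (1200 bp). The regions at 5.65 and 4.64 kb are the neighbours whose sequences are printed above. By their middles the sites of MES and HB stood on the side near the TSS and those of the later stages on the far side. By overlap of the deposited intervals, however, HE and MAC sites also reached the nearer region at chr19:23136240-23136930, and the HE site covered all of the bases printed for it. The early stages and HE therefore shared open chromatin there.

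In single stages, the widest regions of Klf9 lay 7.84 kb upstream in MES (300 bp), 6.81 kb upstream in MAC (500 bp) and, in HE, 83.6 kb and 75.3 kb upstream and 10.8 kb downstream in an intron (1200 bp each). The MAC region at 6.81 kb upstream was reached by the HE site as well. A region 15.7 kb upstream was open in HE (600 bp) and MAC (400 bp).

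Klf10 had 3, 4, 6, 2 and 5 other sites, and 2 of its 10 regions were open in all 5 stages, both far upstream. At 73.4 kb (chr15:38373775-38374423) the widths from MES to MAC were 600, 1000, 1100, 700 and 400 bp. At 84.1 kb (chr15:38384392-38385135) they were 500, 900, 1500, 1000 and 1000 bp. Downstream of the gene, a region at 15.8 kb was open in MES (500 bp), HB (600 bp) and MAC (200 bp), and a site of HE (1600 bp), 16.3 kb downstream by its middle, overlapped it. By its middle that HE site was also the widest region of HE alone, though not by overlap. The widest of HB alone lay 42.2 kb upstream (800 bp) and of MAC alone 71.1 kb upstream (500 bp). A further HE region had its middle in a coding exon of Klf10, 2.41 kb from the TSS (400 bp).

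Klf13 had 1, 2, 3, 2 and 7 other sites. The region 72.9 kb upstream (chr7:64011477-64012076) was open in HE (800 bp), HP (500 bp) and MAC (1000 bp), and the one 18.3 kb upstream in MES (700 bp) and HB (800 bp). An intron region 2.37 kb downstream was open in HE (800 bp) and MAC (300 bp). In single stages, the widest lay 13.4 kb upstream in HB (700 bp), 26.7 kb upstream in HE (800 bp), 35.6 kb upstream in HP (500 bp) and 51.3 kb upstream in MAC (1000 bp). A further 12 sites inside Klf13 were nearer to the TSS of E030018B13Rik, which lies within its span, and were not assigned to it. Those within chr7:63896227-63897826, the span of the HE site, were listed in all 5 stages, with widths of 700, 1100, 1600, 800 and 300 bp from MES to MAC.

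When all 89 merged regions away from promoters were counted by their open stages, MAC-only regions numbered 34 (38.2%, against 38.9% of such regions of all genes) and HE-only regions 17 (19.1% against 18.1%). These shares were near the background. Regions of MES and HB were 8 of 89 (8.99% against 4.91%), those of HE, HP and MAC were 5 (5.62% against 1.84%), and those of all 5 stages were 4 (4.49% against 3.06%). Each of the 5 regions of HE, HP and MAC belonged to another gene. With sites narrower than their list's median left out, the MAC-only regions numbered 13, those of MES and HB 3, those of HE, HP and MAC 4 and those of all 5 stages 0. These filtered counts have no share of all genes beside them, so they do not show whether the differences above remain. No test was made of the shares, since the regions of a gene share a locus and there was 1 list per stage. Of the 89, 64 were seen in 1 stage alone (71.9% against 70.6%), again near the background. Counted by time, 19 regions (21.3%) were open in MES, HB or both and not later, against 15.8% of the regions of all genes. Those open in HE, HP or MAC and not earlier numbered 61 (68.5% against 69.0%), which was the background share.

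**Figure D4:**
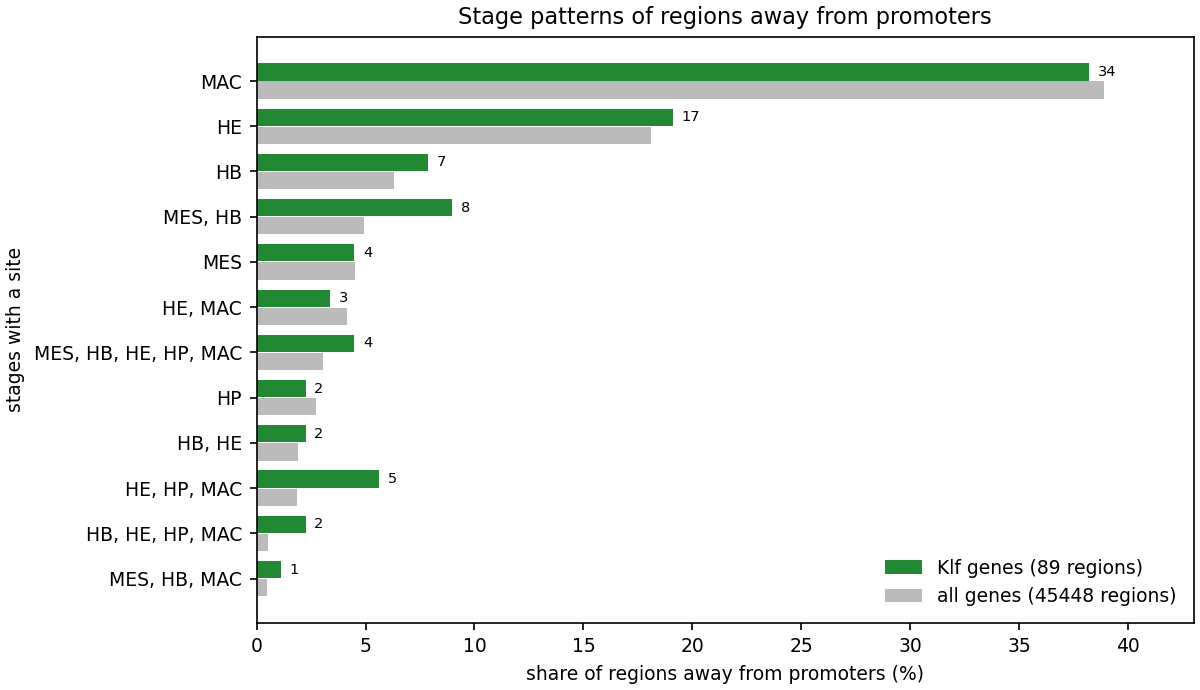
Share in percent of the regions away from promoters with each pattern of open stages, for the Klf genes (green, counts at the bar ends) and for all genes (grey). The bars for MAC and for HE are alike in length, and the green bar is longer for MES with HB and for HE with HP and MAC.

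The 89 regions lay 1.19 to 161 kb from the nearest TSS of their gene, with a median of 35.6 kb, 53 of them upstream and 36 downstream. Of their centres 68 were intergenic, 17 in an intron of the gene, 2 in a coding exon, 1 in an untranslated exon and 1 inside another gene. The 161 kb belonged to an intron of Klf12. Outside the genes the farthest assigned site was that of Klf6 in HP 91.8 kb upstream, and the nearest one past the limit was a site of HE 101 kb from Klf3. In all, 58 sites lay beyond the limit with one of these genes as the nearest. At the promoters, the site just inside the limit was the second Klf13 site in MES, 0.935 kb from the TSS by its edge, and the one just outside was a MAC site of Klf2 at 1.04 kb.

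Sequence motifs were then counted by exact letters in either direction over the middle 500 bp of each region. In promoter regions the KLF box occurred in 11 of 16 (68.8%), against 30.1% of the promoter regions of all genes, and the SP box in 9 of 16 (56.2% against 22.4%). Both boxes were found at Klf2, Klf3, Klf5, Klf7, Klf10, Klf12 and Klf13, and neither at Klf6 or Klf9. At Klf3 the KLF box stood only in regions around its second TSS. The 16 regions were rich in G and C, with a median of 66.6% beside 62.0% over all promoter regions, and the part of this in the counts of both boxes was not tested. Some of them neighbour or overlap each other at Klf3, Klf10, Klf12 and Klf13. Of the other motifs, TEAD was in 1 of 16 (6.25% against 18.7%), RUNX in 2 (12.5% against 20.6%), GATA in 2 (12.5% against 9.71%), AP1 in 2 (12.5% against 8.58%), CEBP in 2 (12.5% against 12.7%), PU.1 in 1 (6.25% against 4.53%) and CTCF in 0 (3.46% of all). The MEF2 consensus, searched after other results were known, occurred in 3 of 16 (18.8%), against 82 of 17073 (0.480%). Among promoter regions open in all 5 stages it occurred in 3 of 7 at these genes and in 24 of 7595 (0.316%) at all genes. In the other regions it was found in 0 of 89, beside 1.30% of those of all genes.

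In the 89 other regions the AP1 motif was found in 32 (36.0% against 27.0% of all such regions), the GATA motif AGATAA in 29 (32.6% against 26.7%) and the RUNX motif in 28 (31.5% against 37.5%). The KLF box was in 15 (16.9% against 18.7%), so its share away from promoters was near the background. The PU.1 motif GAGGAAGT was in 6 (6.74% against 9.33%), the CEBP motif in 23 (25.8% against 22.6%), the TEAD motif in 26 (29.2% against 29.0%) and the CTCF consensus in 2 (2.25% against 5.66%). By pattern, the AP1 motif was in 4 of 5 regions of HE, HP and MAC (47.7% of such regions of all genes), 3 of 8 of MES and HB (14.6%), 2 of 4 of all 5 stages (19.3%), 7 of 17 HE-only regions (24.2%) and 11 of 34 MAC-only regions (33.7%). With so few regions in each pattern, no order among them was read from these counts. These are letters in the reference genome and no record of a bound factor, and the KLF and RUNX motifs can share bases.

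Relatives and partners of the genes were compared by their promoters. Their counts are to be read against the shares of all genes given above, which ran from 48.6% in HP to 59.8% in HE, with 42.0% in all 5 stages. Of 17 other genes of the KLF and SP family, 14, 14, 14, 10 and 9 had a promoter site from MES to MAC, and 9 had one in all 5 stages. In HP and MAC these counts were near the shares of all genes. Klf1, the erythroid factor, Klf4, a factor of pluripotency, Klf11, Klf15, Klf16 and Sp1 to Sp4 were open in all 5. Klf8, Klf14, Sp6 and Sp9 were open in MES, HB and HE, Sp5 in MES, HB and HP, and Sp8 in HE. Klf17 and Sp7 had no promoter site. Klf8 is the closest relative of Klf3 and Klf12 and, like them, binds CtBP.

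In endothelium the kinases Map3k3, Map2k5 and Mapk7 activate MEF2 factors, which act on Klf2, and the proteins Krit1, Ccm2, Pdcd10 and Heg1 restrain this route. Of these 10 genes, with Mef2a, Mef2c and Mef2d, 9, 9, 10, 8 and 9 had a promoter site from MES to MAC. All 5 stages were open at 8 of them, against 42.0% of all genes. The exceptions were Mef2c, open in HB, HE and MAC, and Heg1. At Mef2c the count of all assigned sites was 0, 1, 5, 1 and 7 from MES to MAC, at Mef2a 1, 1, 7, 3 and 12, and at Mef2d 5, 5, 4, 4 and 3.

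The corepressors and ubiquitin ligases of the KLF proteins were open in nearly every list. Of 10 genes, 10, 10, 9, 10 and 9 had a promoter site from MES to MAC, and 8 in all 5, where 48.6 to 59.8% of all genes had one by stage and 42.0% in all 5. Ctbp1, Ctbp2, Sin3a, Sin3b, Hdac1 and Hdac2 were among the 8. Fhl3, a partner of Klf3, lacked a site in MAC, and Smurf1, which marks Klf2 for degradation, lacked one in HE.

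Finally, for the genes with most regions (Klf6 with 19, Klf9 with 14, and Klf10 and Klf13, tied at 13), the protein-coding genes with the most similar mixture of stage patterns were sought among 1304 genes with at least 10 regions. Likeness was the cosine between their counts of regions by pattern, which is 1 for the same mixture. Klf6 was nearest to Lyst (0.959), Nabp1 (0.953) and Tsc22d3 (0.952). Klf9 was nearest to Lrrc4 (0.960), Wnt11 (0.950) and Fzd7 (0.937), and Klf10 to Tnrc6b (0.950), Zfp608 (0.920) and Itprid2 (0.906). Klf13 was nearest to Plxna2 (0.960), Hs6st1 (0.946) and Dusp6 (0.944). With 10 to 20 regions in each of these genes, the order among neighbouring values rests on few regions. The values are the highest among the 1304 genes and are not set against a typical cosine, so no kinship was read from them.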

How the data were processed

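DNaseI-seq was performed on sorted cells of each stage. As the study's methods state, adapters were trimmed by the authors with CutAdapt, who then aligned the reads to mm10 (GRCm38) with Bowtie, removed duplicates with Picard and called DHSs with DFilter. The deposited files, 1 per stage, hold chromosome, start and end positions, with no signal, count, score or p-value, and all widths are multiples of 100 bp. Bowtie and HOMER are named in the submitters' processing notes with no version. How the 2 MAC replicates were combined is not given in the sources used here, and the depth of each list was not used.

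Sites were assigned with RefSeq annotation of GRCm38.p6 (58496 TSSs of 21787 protein-coding genes) in Python 3.11.15 with numpy 2.4.6 and pysam 0.24.0. Windows of 500 bp around each site's middle were merged across stages at an overlap of at least 125 bp. The assignment was checked on simulated sites. Sequences are those of the reference genome, not of strain 129. The RefSeq promoter table had an entry for 7 of the 9 genes, all identical to the genome sequence. The members and lists were chosen with earlier results of these data known, and the MEF2 and CTCF searches were added after motif counts had been seen. Named regions were every promoter region, regions open in 4 or 5 stages, and the widest region of each single stage. Other regions named in the report, such as those of 2 or 3 stages, were chosen after their values were seen. No test was possible with 1 list per stage. Alternatives changed the promoter reach, the TSS set, the width of sites, the distance limit, the merging and the choice of nearest gene.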

Additional observations from a re-analysis of the deposited data

How the results depend on the processing

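The lists carry no score, so the width of a site was the only handle on stringency, and the assignment to the nearest gene is a convention rather than a measured link. When sites narrower than the median of their list were dropped, the genes held 14, 20, 26, 13 and 28 sites from MES to MAC, in 50 merged regions, of which 13 away from promoters were MAC-only, 9 HE-only, 3 of MES and HB and 0 of all 5 stages. With the widest sites up to the length of the shortest list, there were 24, 28, 26, 23 and 26 sites from MES to MAC, so that the order of stages in the report was lost, and 59 merged regions, of which 9 were MAC-only, 6 HE-only and 2 of all 5 stages. Within 50 kb of the TSS, 39 sites were left in MAC. With the nearest gene taken among all annotated genes, noncoding ones included, the sites numbered 17, 18, 17, 12 and 24 from MES to MAC. These settings keep fewer sites by construction. Over all settings, 22 of the counts over all of these genes changed by more than 1.5-fold and 68 by less or not at all, and of the counts for single genes 18 did and 36 did not. Counting sites inside a gene for that gene, a choice made after seeing the data, raised Klf13 from 22 to 34 sites. By overlap of deposited intervals in place of windows, 8 of the 89 other regions and 6 of the 16 promoter regions had a different set of stages. No paired analysis was possible because each stage had 1 list.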
